A study of Mus musculus with 6 samples.

Results

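The genes described here encode the T cell receptor complex, the CD8 coreceptor and the proteins that act first when the receptor is engaged. They are the CD3 chain genes Cd3d, Cd3e, Cd3g and Cd247, the coreceptor genes Cd8a and Cd8b1, the kinase genes Lck and Zap70, and the adaptor genes Lat and Trat1. The list was set by function with earlier results of these data known, as were the other gene lists below. Counts over these lists are therefore descriptive. The list of members held 10 genes. Of these, 9 had a probe set with their symbol in the platform's probe table, 1 probe set each, out of 19938 genes so represented, and Lck was not analysed here. All 9 passed the filter on dim probe sets, as did 11147 genes in all.

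A T cell receptor has no signalling domain of its own and is carried to the cell surface with the CD3 chains, whose tails hold the tyrosine motifs known as ITAMs. CD8 binds the class I MHC molecule that presents the antigen and brings the kinase Lck, which phosphorylates the ITAMs. Zap70 then docks on them and phosphorylates the scaffold Lat, from which calcium, protein kinase C and Ras signalling branch out. Trat1, also called TRIM, is a transmembrane adaptor that associates with the receptor complex.

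Gene expression was measured on Affymetrix arrays, 1 per sample, in CD8+ T cells from spleens of female C57BL/6 mice carrying the Pmel-1 T cell receptor transgene, which recognises the melanoma antigen gp100. The 6 arrays formed 3 groups of 2. Naive cells were collected fresh and sorted as CD8+ Thy1.1+. Priming used the gp100 antigen for 4 days and cytokine (IL-2 in one group, IL-12 in the other) for 6 days, and the study set the groups side by side to find genes needed for activity against tumours. The labels name no mouse or culture behind an array, so the spread behind each p-value may be technical. Every group carries the same transgenic receptor, and a sort is stated for naive cells alone.

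Values are log2 RMA values, differences are on the log2 scale with the standard error (SE) of a limma fit to all 6 arrays (n = 2 per group), and a gene "passed" with a Benjamini-Hochberg adjusted p under 0.05 over the 11147 genes. Between IL-12 and IL-2 cells 20.8% of genes passed, between IL-2 and naive cells 45.7% and between IL-12 and naive cells 57.9%. The medians of whole arrays lay lower in IL-2 and IL-12 than in naive cells by 0.10 and 0.12 (differences of -0.10 and -0.12), while the medians of the tested genes lay 0.10 and 0.07 higher. Small differences from naive cells were therefore sensitive to scaling. Of the genes that passed against naive cells, 56.4% were higher in IL-2 cells and 54% in IL-12 cells. Those shares were 67.8% and 64% with arrays centred on their medians, and 44.6% and 47.7% with centring on the tested genes. The mean levels of B cell and of myeloid markers were highest in naive cells. The mean log2 value of 12 B cell markers was 8.85 and 8.79 on the naive arrays, 6.74 on each IL-2 array and 7.43 and 7.53 on the IL-12 arrays. That of 10 myeloid and dendritic markers was 7.68 and 7.89, then 6.27 and 6.09, then 6.43 and 6.41. Itgam, on the myeloid list, went the other way, with group means of 6.31 in naive, 6.57 in IL-2 and 7.52 in IL-12 cells. Cd4 read between 6.19 and 6.61 on all arrays, below the filter value of 6.83. Of the other 4 genes on the list of CD4 and regulatory T cell markers, Ctla4 (7.77, 11.97 and 11.44 in naive, IL-2 and IL-12 cells) and Zbtb7b (7.21, 9.08 and 8.74) were higher in both primed groups, Foxp3 read 6.96 to 7.42 and Cd40lg at most 5.82. Of 6 natural killer markers, Ncr1, Klrb1c and Klra8 read at most 6.00, 5.37 and 5.79. Gzma, a granzyme that activated CD8+ T cells also make, had means of 7.98, 10.03 and 12.47, while Fcer1g (9.33, 7.4 and 7.11) and Tyrobp (9.02, 6.66 and 7.16) were highest in naive cells. In bulk RNA, fewer cells of a type and less RNA per cell cannot be told apart.

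**Figure D1:**
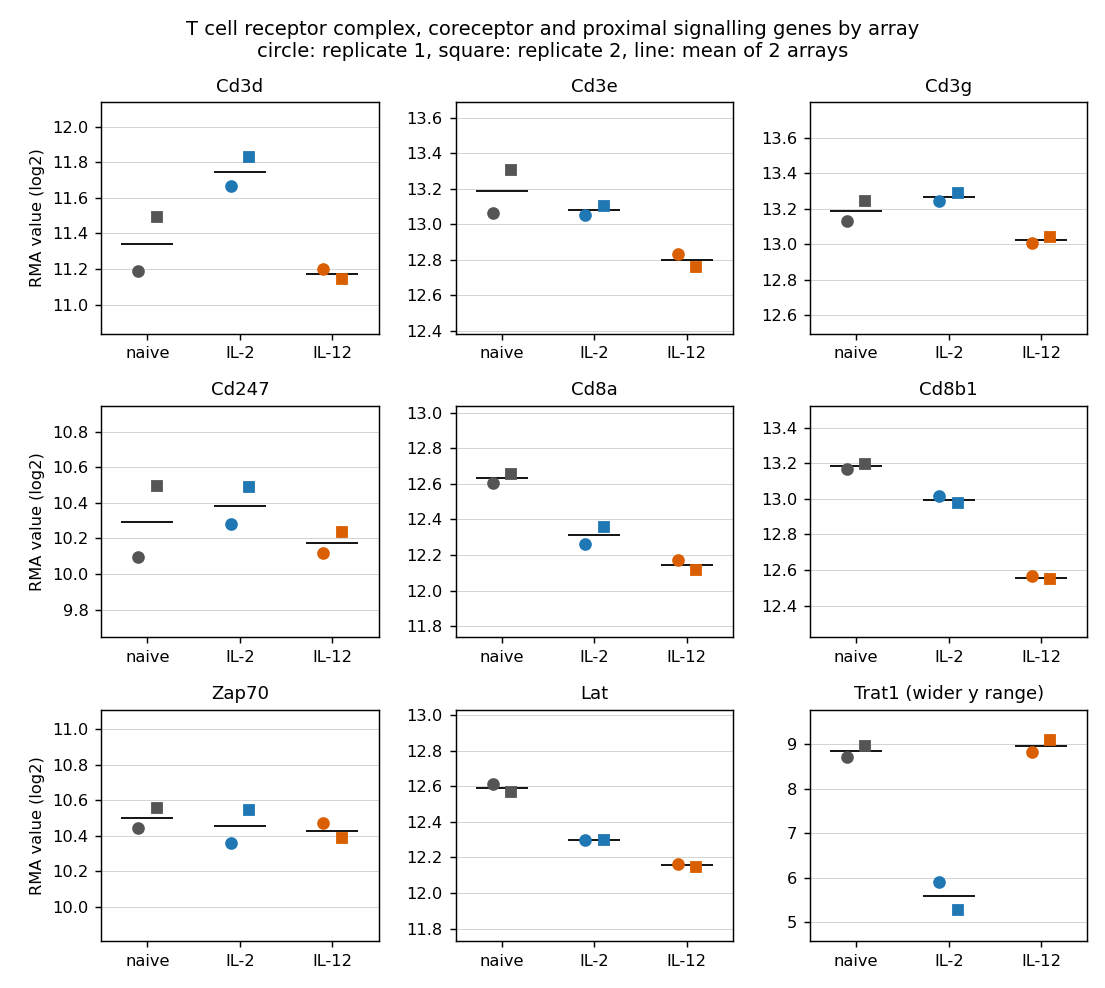
RMA value (log2, vertical axis) of each of the 9 genes on the 6 arrays, with circles for replicate 1, squares for replicate 2 and a line at the mean of 2 arrays. The y range is the same in 8 panels and wider for Trat1, whose IL-2 arrays read 5.89 and 5.26 and whose other 4 arrays read 8.70 to 9.09.

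Among these genes, the adaptor gene Trat1 made up the large difference and the rest varied little. Over the 6 arrays Trat1 spanned 3.83 on the log2 scale, whereas the other 8 genes spanned from 0.20 (Zap70) to 0.68 (Cd3d). For IL-12 against IL-2, 3 of 9 genes passed, against 20.8% of all genes. There were 4 of 9 in each comparison with naive cells, against 45.7% and 57.9% of all genes. The arrays of the compared groups did not overlap for 8 of the 9 genes in IL-12 against IL-2 (69.5% of all genes), 5 between IL-2 and naive cells (73.9%) and 5 between IL-12 and naive cells (79.2%). Both IL-12 arrays lay below both IL-2 arrays for 7 (33.4% of all genes), both IL-2 below both naive arrays for 4 (35.2%) and both IL-12 below both naive arrays for 5 (36.7%). Trat1 was the 1 gene that passed with a difference of at least 2-fold, in IL-12 against IL-2 (3.3% of all genes) and in IL-2 against naive cells (10.8%). Against naive cells 17.2% of all genes did so in IL-12 cells. The median difference of the 9 genes was -0.21 for IL-12 against IL-2 (all genes 0.02), -0.11 for IL-2 against naive (0.01) and -0.17 for IL-12 against naive (0.04).

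Upstream sequences are shown for Trat1, the gene with the largest difference, and for Cd3d and Cd3g. The last pair are neighbouring genes read away from each other. Their differences were 0.41 and 0.08 for IL-2 against naive cells, and -0.17 for both genes for IL-12 against naive cells. Each sequence is the 250 bases before a RefSeq start (assembly GRCm38.p6), at chr16:48772063-48772312 (minus strand) for Trat1, chr9:44981536-44981785 (plus strand) for Cd3d and chr9:44980432-44980681 (minus strand) for Cd3g. Capitals mark matches, on either strand, to the STAT motif TTCNNNGAA, the RUNX core TGTGGT, the TCF/LEF core CTTTGA or the ETS core CCGGAA.
Trat1: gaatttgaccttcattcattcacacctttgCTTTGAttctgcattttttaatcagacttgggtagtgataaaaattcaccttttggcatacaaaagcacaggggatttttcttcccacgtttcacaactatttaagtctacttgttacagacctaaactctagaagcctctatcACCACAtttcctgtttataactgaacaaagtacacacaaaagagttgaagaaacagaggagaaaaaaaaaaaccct
Cd3d: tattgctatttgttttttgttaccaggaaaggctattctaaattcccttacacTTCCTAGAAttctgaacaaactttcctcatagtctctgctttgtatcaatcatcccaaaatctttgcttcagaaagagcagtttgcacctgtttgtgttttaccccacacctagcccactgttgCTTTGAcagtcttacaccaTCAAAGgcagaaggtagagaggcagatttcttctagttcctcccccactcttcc
Cd3g: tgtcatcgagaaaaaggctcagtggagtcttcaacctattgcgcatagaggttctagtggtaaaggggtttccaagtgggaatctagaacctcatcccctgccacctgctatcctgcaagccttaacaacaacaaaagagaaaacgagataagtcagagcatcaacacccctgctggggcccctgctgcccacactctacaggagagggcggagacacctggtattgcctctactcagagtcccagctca

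The start sites behind the Cd3g and Cd3d windows lie 1355 bases apart on chromosome 9, and Cd3e is the next protein-coding gene after Cd3d. Trat1 held 1 match to the RUNX core, in its reverse complement, starting at base -76, and 1 to the TCF/LEF core at -220. Cd3d held 1 match to the STAT motif at -197 and 2 to the TCF/LEF core at -73 and -54. The Cd3g window held none of the 4 motifs. Of 32851 such windows of all genes, 7.02% held the STAT motif, 14% the RUNX core, 13.8% the TCF/LEF core and 12% the ETS core. Among the 10 windows of 8 of these genes, the same motifs were found in 1, 2, 3 and 1. These are letter matches, and the arrays do not measure binding.

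Of the CD3 chains, Cd3d differed most between the groups. Cd3d (probe set 10584821), which encodes the delta chain that pairs with epsilon, read 11.19 and 11.49 on the naive arrays, 11.67 and 11.83 on the IL-2 arrays and 11.20 and 11.15 on the IL-12 arrays. The IL-2 arrays lay above all others, and the naive and IL-12 arrays overlapped. Cd3d was 0.57 lower in IL-12 than in IL-2 cells (difference -0.57 ± 0.13 (SE), a 1.49-fold difference; limma adjusted p = 0.0149). IL-2 cells exceeded naive cells by 0.41 ± 0.13 (limma adjusted p = 0.0292), and the difference between IL-12 and naive cells did not pass (-0.17 ± 0.13; limma adjusted p = 0.3). With the first or second IL-2 array left out, the IL-12 against IL-2 difference was -0.65 and -0.49 (SE 0.17; adjusted p of 0.0564 and 0.136). With the first or second IL-12 array left out, it was -0.60 and -0.54 (SE 0.17; 0.0627 and 0.0941). The rise over naive cells did not pass without the first naive array (0.111), without the first (0.0663) or second (0.183) IL-2 array, after quantile normalization (0.31; 0.0933) or with centring on the tested genes (0.31; 0.0548). Genes with a pattern close to that of Cd3d over the 6 arrays were Mansc1, Rhog and Cnppd1, with root mean square differences of 0.03, 0.03 and 0.05.

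Cd3e and Cd3g, which encode the epsilon and gamma chains, read lowest on the IL-12 arrays and spanned 0.55 and 0.28 over the 6 arrays. Cd3e (probe set 10593024) read 13.06 and 13.31 on the naive, 13.05 and 13.10 on the IL-2 and 12.83 and 12.76 on the IL-12 arrays. The IL-12 arrays lay below all others, and Cd3e was lower in IL-12 than in naive cells (-0.39 ± 0.12; limma adjusted p = 0.0184). That call did not hold with arrays centred on their medians (-0.27; adjusted p = 0.12), nor without the second naive array (0.0562), the first IL-12 array (0.0552) or the second IL-12 array (0.103). Between IL-12 and IL-2 cells Cd3e differed by -0.28 ± 0.12 (limma adjusted p = 0.12), which passed when those groups were fitted alone (0.0402). Cd3g (probe set 10593015) read 13.13 and 13.25 on the naive, 13.24 and 13.29 on the IL-2 and 13.01 and 13.04 on the IL-12 arrays. Its differences passed in none of the 3 comparisons (unadjusted p of 0.0393 for IL-12 against IL-2, 0.461 and 0.134 for the others). Its interval (95%, limma) for IL-12 against IL-2 ran from -0.47 to -0.02, and the IL-12 arrays lay below the others. That difference had an adjusted p of 0.043 with trend and robust estimation, and the one from naive cells 0.037 after quantile normalization.

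Cd247 (probe set 10351353), which encodes the zeta chain with the most ITAMs of the complex, read 10.09 and 10.49 on the naive, 10.28 and 10.49 on the IL-2 and 10.12 and 10.23 on the IL-12 arrays. The naive arrays differed from each other by 0.40, which was as much as its whole range. None of its differences passed, and the intervals (95%, limma) ran from -0.54 to 0.13 for IL-12 against IL-2, -0.25 to 0.43 for IL-2 against naive and -0.45 to 0.22 for IL-12 against naive.

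Adding a constant to all log2 values of an array leaves the difference between its genes as it is, whereas quantile normalization can change it. The Cd3d value minus the Cd3e value was higher than its naive mean by 0.46 and 0.57 on the IL-2 arrays and by 0.21 and 0.23 on the IL-12 arrays. Set against Cd3g it was higher by 0.27 and 0.39 on the IL-2 arrays, and 0.05 and -0.04 on the IL-12 arrays, within the naive arrays at -0.10 and 0.10. On these arrays Cd3d thus read higher relative to Cd3e and Cd3g in IL-2 than in naive cells. With 2 arrays per group an exact permutation test of such a value cannot pass 0.05, and none was run.

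**Figure D2:**
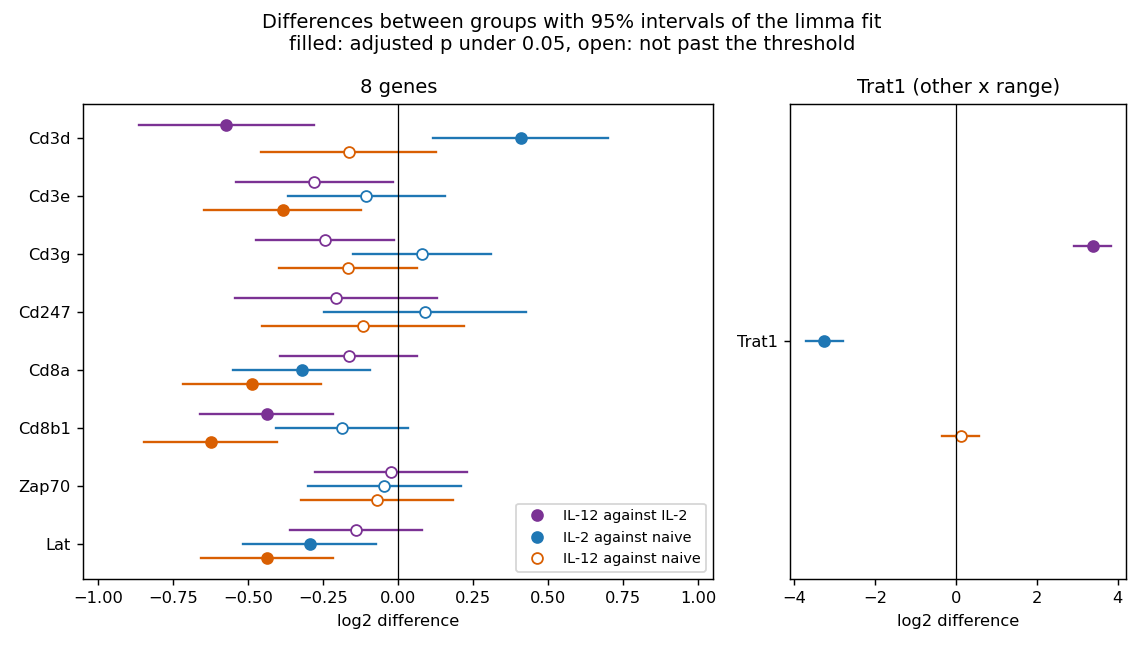
Log2 difference (horizontal axis) of each gene in the 3 comparisons, with the 95% interval of the limma fit. Filled points had an adjusted p under 0.05 and open points did not. Trat1 has its own panel with a wider axis, at 3.38 for IL-12 against IL-2, -3.26 for IL-2 against naive and 0.12 for IL-12 against naive.

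Both coreceptor genes were lower in IL-12 than in naive cells. Cd8b1 (probe set 10538979), which encodes the beta chain of the CD8 heterodimer, read 13.17 and 13.20 on the naive, 13.01 and 12.98 on the IL-2 and 12.57 and 12.55 on the IL-12 arrays. No groups overlapped, and the IL-12 arrays were lowest. It was 1.54-fold lower in IL-12 than in naive cells (-0.63 ± 0.10; limma adjusted p = 0.000606) and 1.36-fold lower than in IL-2 cells (-0.44 ± 0.10; limma adjusted p = 0.0144). The second call did not hold without the first IL-2 array (0.111), the second IL-2 array (0.104), the first IL-12 array (0.0747) or the second IL-12 array (0.096), at nearly the same size (-0.46 to -0.42). Between IL-2 and naive cells it differed by -0.19 ± 0.10 (limma adjusted p = 0.148), which passed after quantile normalization (-0.31; 0.0317) and with centring on the tested genes (-0.29; 0.0369).

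Cd8a (probe set 10538993), which encodes the alpha chain that carries Lck, read 12.61 and 12.66 on the naive, 12.26 and 12.36 on the IL-2 and 12.17 and 12.12 on the IL-12 arrays. It was 1.40-fold lower in IL-12 than in naive cells (-0.49 ± 0.10; limma adjusted p = 0.00292), a difference that passed in every setting run. It was also lower in IL-2 than in naive cells (-0.32 ± 0.10; limma adjusted p = 0.0285). That call did not hold with arrays centred on their medians (-0.22; 0.154), with the compared groups alone or with 1 IL-12 array left out (0.0522), or without the first (0.185) or second (0.0844) IL-2 array. IL-12 and IL-2 cells differed in Cd8a by -0.17 ± 0.10, with an interval (95%, limma) of -0.39 to 0.06 (limma adjusted p = 0.28). The Cd8b1 value minus the Cd8a value lay above its naive mean by 0.20 and 0.07 on the IL-2 arrays. It changed by -0.15 and -0.12 on the IL-12 arrays, with the naive arrays at 0.01 and -0.01. Whether these neighbouring chain genes fell by different amounts was not tested.

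Zap70, the kinase, passed in no comparison, while Lat, the scaffold it phosphorylates, passed in both comparisons with naive cells. Zap70 (probe set 10345509) read 10.44 and 10.56 on the naive, 10.36 and 10.54 on the IL-2 and 10.47 and 10.38 on the IL-12 arrays. All 3 groups overlapped, none of its differences passed, and the intervals (95%, limma) ran from -0.28 to 0.23 for IL-12 against IL-2, -0.30 to 0.21 for IL-2 against naive and -0.32 to 0.18 for IL-12 against naive. Lat (probe set 10567825) read 12.61 and 12.57 on the naive, 12.30 on both IL-2 and 12.16 and 12.15 on the IL-12 arrays. The groups did not overlap, with naive cells highest and IL-12 cells lowest. It was 1.35-fold lower in IL-12 than in naive cells (-0.44 ± 0.10; limma adjusted p = 0.00431), in every setting run. The fall in IL-2 against naive cells (-0.30 ± 0.10; limma adjusted p = 0.0346) did not hold with arrays centred on their medians (-0.20; 0.182), with the compared groups alone or with 1 IL-12 array left out (0.0644), or without the first naive array (0.0589), the first IL-2 array (0.156) or the second IL-2 array (0.149). IL-12 and IL-2 cells differed in Lat by -0.14 ± 0.10 (limma adjusted p = 0.336). Over the 6 arrays Lat was most like Cd8a, with a root mean square difference of 0.04 after centring each gene on its mean, the smallest among the 36 pairs.

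Trat1 (probe set 10439790) had low values only on the IL-2 arrays, which read 5.89 and 5.26. The naive arrays read 8.70 and 8.96 and the IL-12 arrays 8.82 and 9.09, so those groups overlapped. The difference between IL-12 and IL-2 cells was 3.38 ± 0.20 (10.4-fold, interval 2.92 to 3.84; limma adjusted p = 2.34e-05), the 10th largest in size among 11147 genes. IL-2 cells differed from naive cells by -3.26 ± 0.20, or 9.56-fold (limma adjusted p = 3.49e-06). IL-12 cells differed from naive cells by 0.12 ± 0.20, with an interval (95%, limma) of -0.34 to 0.58. The first 2 differences passed in every setting run, from 3.06 to 3.70 for IL-12 against IL-2 and from -3.57 to -2.94 for IL-2 against naive cells. Of the Y-linked genes, which female cells lack, 6 read between 2.88 and 5.0 on single arrays and Sry read 7.53 to 8.13. The level at which a probe set reads background thus varied, and the Trat1 values in IL-2 cells lay between those readings, so whether they stood above background cannot be told and the folds may be understated.

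Most B cell markers had the direction of Trat1 in the comparisons with IL-2 cells. Of 12 tested B cell markers 9 were higher and 1 lower in IL-12 than in IL-2 cells, where 9.82% and 11% of all genes were. The lower one was Cd72 (-1.31), and Fcer2a and Cr2 did not pass. All 12 were lower in IL-2 than in naive cells, where 19.9% of all genes were. The 3 genes with the pattern closest to Trat1 over the 6 arrays, among 10728 named genes, were Prag1, the B cell marker Ms4a1 (CD20) and Enpp4, at root mean square differences of 0.51, 0.56 and 0.56. The markers did not follow Trat1 throughout. All 12 were lower in IL-12 than in naive cells, Ms4a1 by 0.89 (difference -0.89; limma adjusted p = 0.000771), where Trat1 did not pass. The part of other cells in the Trat1 values was not tested. No other member came near its pattern, the nearest being Lat at 1.56.

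**Figure D3:**
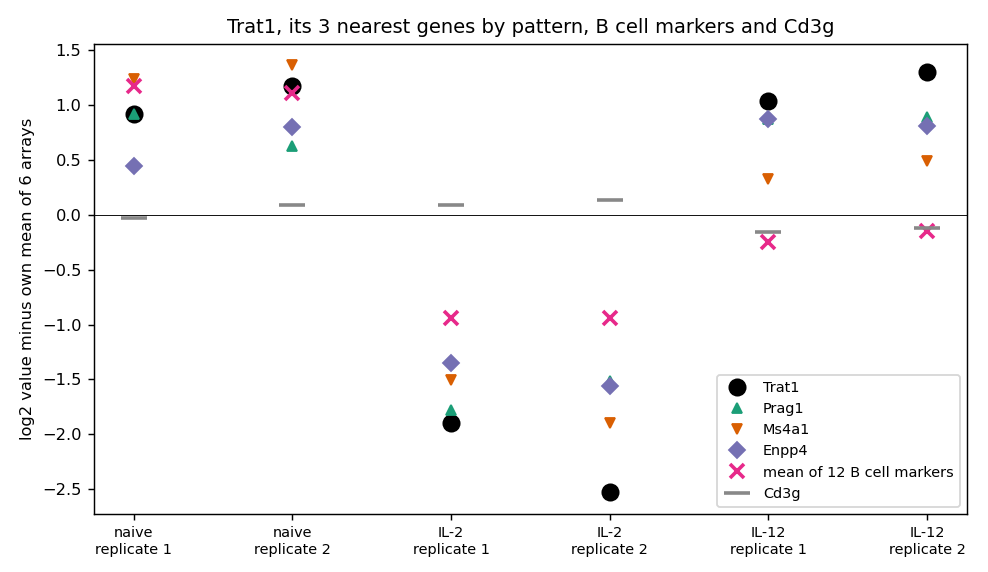
Log2 value minus the gene's own mean of 6 arrays (vertical axis), by array, for Trat1, its 3 nearest genes by pattern, the mean of 12 B cell markers and Cd3g. Trat1 lies low on both IL-2 arrays, and the B cell markers lie lower on the IL-12 than on the naive arrays.

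For most of the other members, many genes shared a nearly flat pattern, and likeness says little. Within a root mean square difference of 0.2 lay 4241 named genes for Zap70, 3768 for Cd3g and 728 for Cd3d, but 0 for Trat1. The nearest genes were Irak3, Crtc1 and Mppe1 for Cd8b1 and Ppp1r37, Mccc1 and Ggps1 for Cd8a, at 0.02 to 0.03.

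Among the other kinases and adaptors that work beside these members, most calls were falls. Of 21 tested genes of this list, 11 fell and 1 rose in IL-2 against naive cells (all genes 19.9% lower and 25.8% higher), with a median difference of -0.34. The 4 with the smallest adjusted p were Txk, a Tec family kinase, at -1.35, Sos1, an exchange factor for Ras, at -1.09, Unc119, an activator of Lck, at 1.24, and Grap2 at -0.63. In IL-12 against naive cells 11 fell and the other 10 did not pass (all genes 26.7% lower), with a median of -0.33. Txk, at 11.54 and 11.24 on the naive, 10.03 and 10.04 on the IL-2 and 9.43 and 9.14 on the IL-12 arrays, had the smallest adjusted p of the list (-2.10, a 4.30-fold fall; limma adjusted p = 3.88e-06). Fyb, a cytoskeletal adaptor, differed by -1.36, Sos1 by -1.35 and Carmil2 by -1.02.

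Between IL-12 and IL-2 cells 8 of the 21 were lower and 2 higher (all genes 11% and 9.82%), with a median of -0.21. Sh2d2a, which encodes the Lck-binding adaptor TSAd, differed by -0.79, Unc119 by -1.31, Txk by -0.75 and Fyn, the other Src kinase of T cells, by 0.52. Unc119 read 7.19 and 7.6 on the naive, 8.85 and 8.41 on the IL-2 and 7.55 and 7.09 on the IL-12 arrays, high in IL-2 cells only. Fyn read 11.95 and 11.89 on the naive, 11.46 and 11.39 on the IL-2 and 12.002 and 11.90 on the IL-12 arrays, low in IL-2 cells only. The 10 that passed became 2 with the first or the second IL-2 array left out and 4 with the first or the second IL-12 array left out. Lcp2, the SLP-76 scaffold that binds beside Lat, passed in no comparison, with differences of -0.13 for both primed groups against naive cells.

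**Figure D4:**
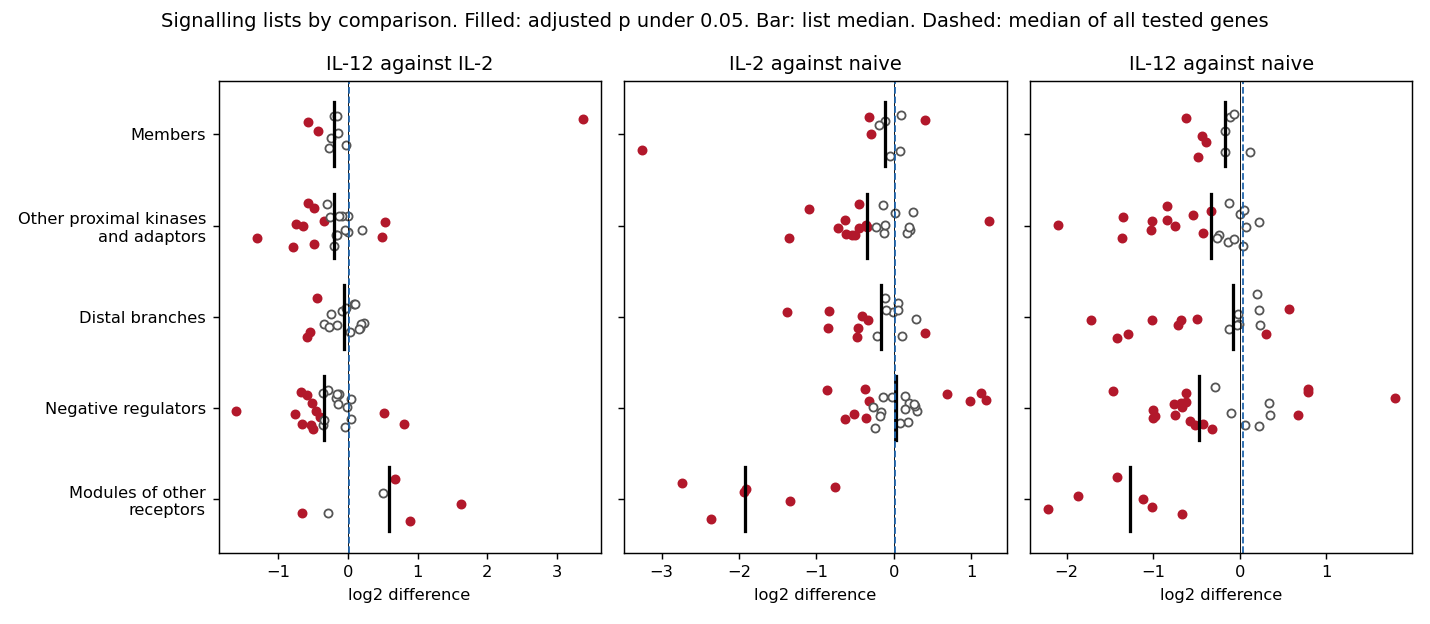
Log2 difference (horizontal axis) of the tested genes of 5 signalling lists in each of the 3 comparisons. Filled points had an adjusted p under 0.05, bars mark list medians and the dashed line marks the median of all tested genes. Most filled points of the proximal and negative lists lie left of 0 for IL-12 against IL-2, and the isolated member point at 3.38 is Trat1.

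Several genes that restrain receptor signalling were lower in IL-12 cells. Of 24 tested genes listed as negative regulators 10 were lower and 2 higher in IL-12 than in IL-2 cells (all genes 11% and 9.82%), with a median of -0.35 (all genes 0.02). The list holds Ptprc and Sh2d1a, which also have activating roles, and both are in the counts against naive cells below. The 10 and 2 together were 6 without the first IL-2 array, 5 without the second IL-2 array and 6 without the second IL-12 array. Sit1, a transmembrane adaptor that recruits a phosphatase, read 10.81 and 11.21 on the naive, 11.10 and 11.23 on the IL-2 and 9.46 and 9.65 on the IL-12 arrays. It was low in IL-12 cells only and differed by -1.61 from IL-2 cells (limma adjusted p = 0.000194). Cd5 differed by -0.66 and the phosphatase gene Ubash3b by -0.76, while Spry1, an inhibitor of Ras signalling, differed by 0.80. Against naive cells 14 of the 24 were lower and 4 higher in IL-12 cells (all genes 26.7% and 31.2%), including Spry1 at 1.79, Sit1 at -1.46, Dgka, a diacylglycerol kinase, at -0.999 and Pag1, which anchors the Lck inhibitor Csk, at -1.001. In IL-2 cells 6 were lower and 4 higher than in naive cells (all genes 19.9% and 25.8%), with a median of 0.03 and 6 calls in all without the second IL-2 array. Dok2 (1.19), Sh2d1a (1.13), Spry1 (0.99) and Pag1 (-0.86) led them. Csk and Cblb passed in no comparison.

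Of the distal branches, 16 of 24 listed genes were tested. In IL-12 against naive cells 7 were lower and 2 higher, where 57.9% of all genes passed (26.7% lower and 31.2% higher). In IL-2 against naive cells 7 were lower and 1 higher, where 45.7% of all genes passed (19.9% lower and 25.8% higher). In both, the share of the list that passed was close to that of all genes. The 8 of the second comparison became 4 without the first IL-2 array and 5 without the second IL-2 array. The genes lower in both included the inositol trisphosphate receptor genes Itpr2 (-1.72 for IL-12 and -1.38 for IL-2) and Itpr3 (-1.42 and -0.83), the kinase gene Itpkb (-1.29 and -0.84) and Rasgrp1 (-1.01 and -0.47), comparisons that share the naive arrays. Stim2 was higher in both (0.56 and 0.40) and Stim1 lower (-0.71 and -0.47), both calcium sensors of the endoplasmic reticulum. Between IL-12 and IL-2 cells only Itpkb, Itpr3 and Rasgrp1 passed, all lower (all genes 11% lower), and at most 1 of the list passed without the first or second IL-2 array or the second IL-12 array. The scaffold genes Bcl10 and Malt1 passed in no comparison.

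Of the signalling genes of other receptors, the ITAM adaptors Cd79a, Cd79b, Fcer1g and Tyrobp, the DAP10 adaptor Hcst and the kinase Syk, 6 of 6 were lower in IL-2 than in naive cells (all genes 19.9%) and 6 of 6 in IL-12 than in naive cells (all genes 26.7%). Syk, the relative of Zap70 used by B and myeloid cells, read 7.87 and 7.65 on the naive, 6.38 and 6.46 on the IL-2 and 6.94 and 7.25 on the IL-12 arrays. It was lower in IL-2 than in naive cells (-1.34) and higher in IL-12 than in IL-2 cells (0.68; limma adjusted p = 0.00902). Cd79a and Cd79b belong to the B cell receptor, and Fcer1g, Tyrobp and Hcst to Fc and natural killer receptors. Fcer1g read 9.01 and 9.65 on the naive arrays and 7.10 to 7.53 on the primed ones. Cd79a, Cd79b, Fcer1g and Tyrobp are also on the lists of B cell and natural killer markers described above, and Hcst and Syk are not. The share of other cells in the values of all these genes was not tested. Among 12 general T cell markers, some of which are on the lists above, 5 were lower and 1 higher in IL-12 than in IL-2 cells (all genes 11% and 9.82%), a count of 6 that was 2 without any single IL-2 or IL-12 array. Thy1, the marker of the sort, read 12.53 and 12.73 on the naive, 12.82 and 12.85 on the IL-2 and 12.35 and 12.28 on the IL-12 arrays. Gata3 differed by -1.86 for IL-12 against IL-2. Of the same 12 markers, 9 were lower and 1 higher in IL-12 than in naive cells (all genes 26.7% and 31.2%). Those 10 calls were 6 with arrays centred on their medians. In IL-2 against naive cells 2 were lower and 2 higher (all genes 19.9% and 25.8%).

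Receptor chain genes were read only through probe sets that name variable segments, a set chosen after its values were seen. The set includes gamma and delta chain segments, and none was shown to belong to the transgenic receptor. Of 41 such probe sets with distinct values, 31 carried several symbols, so the segments share probes and are not independent. The mean was lower in IL-12 than in IL-2 cells for 40 of the 41, against 47.4% of tested genes, and both IL-12 arrays lay below both IL-2 arrays for 39, against 33.4%. The median difference was -0.72, within a range from -1.72 to 0.65. In IL-2 against naive cells 30 had a lower mean (48.5% of tested genes) and the median was -0.19. In IL-12 against naive cells 40 had a lower mean (46.7% of tested genes) and the median was -0.91.

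Among 9 of these probe sets with 1 symbol that were tested as genes, 6 were lower and 1 higher in IL-12 than in IL-2 cells (all genes 11% and 9.82%). That count of 7 was 1 without the second IL-2 array, 3 with the first or the second IL-12 array left out and 4 after quantile normalization. Trgv1, a gamma chain segment, read 9.56 and 9.83 on the naive, 10.12 and 9.93 on the IL-2 and 8.86 and 8.75 on the IL-12 arrays (IL-12 against IL-2 -1.22 ± 0.13; limma adjusted p = 0.000354). Trav14-1 read 10.51 and 9.96, then 8.25 and 8.78, then 7.48 and 7.94. It was lower in IL-2 than in naive cells (-1.72 ± 0.23; limma adjusted p = 0.000463) and lower still in IL-12 cells (-0.80 ± 0.23 against IL-2; limma adjusted p = 0.0416). Trbv1 was the segment higher in IL-12 cells (0.65 ± 0.12; limma adjusted p = 0.00656). The labels do not name the segments of the transgenic receptor.

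**Figure D5:**
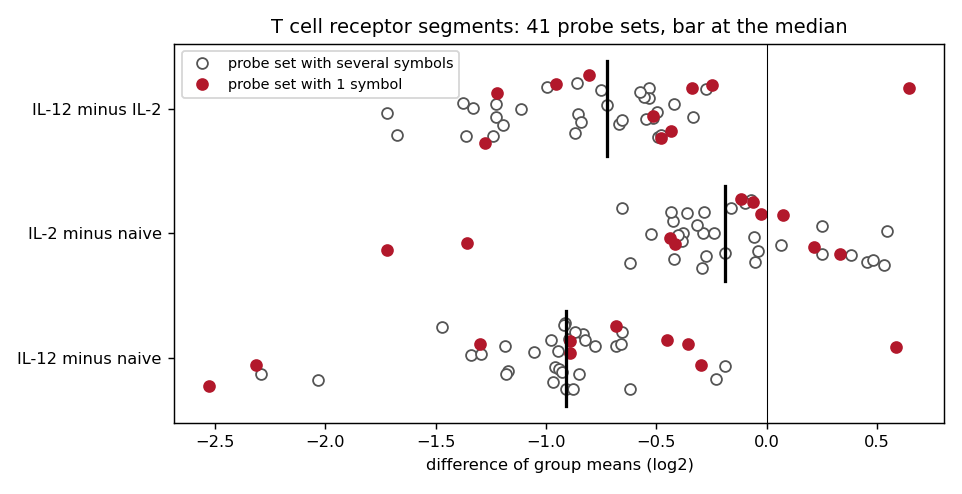
Difference of group means (log2, horizontal axis) for 41 probe sets that name T cell receptor variable segments, in each of the 3 comparisons, with the median as a bar. Filled points carry 1 symbol. All but 1 of the points lie below 0 for IL-12 minus IL-2, around a median of -0.72.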

How the data were processed

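The authors deposited log2 values for 35556 probe sets on 6 arrays, and the submitters' processing notes name RMA. This method subtracts background, forces arrays to like distributions and summarises probes, so it hides a change shared by most genes. The RMA settings, its version and any build are not given in the sources used here. There were 0 value columns without a sample. The values ran from 2.51 to 14.72.

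Of the probe sets, 21789 carried 1 gene symbol in the platform annotation, 1621 several, and 12146 are unnamed here. Symbols were updated through the gene table of assembly GRCm38.p6 for 21698. A gene was represented by the probe set with the highest mean and tested where at least 2 of 6 arrays exceeded the 50th percentile (6.83). A model with a mean for each group and no block was fitted to all 6 arrays by lmFit and eBayes of limma 3.58.1, run in R 4.3.3 (3 residual and 5.62 prior degrees of freedom), with two-sided tests and Benjamini-Hochberg adjustment. The number of arrays limits the precision.

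The members and gene lists were chosen with earlier results of these data known. Named from each list were up to 4 genes with the smallest adjusted p, with Thy1, Cd4 and the Y-linked genes as checks, and for each member the 3 genes nearest in pattern. Stim1, Stim2, Gata3, Lcp2, Csk, Cblb, Bcl10, Malt1, the dim genes of the CD4 and natural killer lists and the receptor segments were chosen after their values were seen. The script was checked with simulated data of known answer. Each simulation changed 200 of 11147 genes. For IL-12 against IL-2 the script recovered 1.6% of simulated log2 changes of 0.3, 18.1% of those of 0.5 and 93.4% of those of 1. In the data 2321 genes passed in that comparison, so these rates need not hold there. A small difference that did not pass is still not shown to be absent. Alternatives were other filters, probe set choices, scalings, variance models, the compared groups alone, a replicate block and leaving out each array. Centring on the tested genes was added after seeing the data. The constant chains of the receptor were not analysed here.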

Additional observations from a re-analysis of the deposited data

How the results depend on the processing

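Of 27 member differences, 8 kept their direction and call under all 16 alternatives, among them Trat1 in both comparisons with IL-2 cells and Cd8a, Cd8b1 and Lat in IL-12 against naive cells. The 16 are not separate checks. Each member had 1 probe set, so other filters and probe set choices could change its adjusted p but not its difference. Fitting the compared groups alone and leaving out either array of the third group gave the same result. Where 1 array was left out, the lone array was assumed to vary like the other groups. The genes that passed between IL-12 and IL-2 cells numbered 2321, 3533 with those groups fitted alone, and 737 to 3533 with an array left out. Between IL-2 and naive cells they numbered 3341 to 5786 with an array left out. The members that passed were 1 to 4 for IL-12 against IL-2, 1 to 4 for IL-2 against naive and 3 to 5 for IL-12 against naive with an array left out. For IL-2 against naive they were 2 with median centring and 2 with the groups alone. The cause of these changes was not tested. Directions that turned were all of differences that did not pass. Zap70 read 0.053 (IL-2) and 0.046 (IL-12) with median centring against naive cells, and 0.000745 for IL-12 against IL-2 with centring on tested genes. With that centring Cd3g and Cd247 read -0.0207 and -0.00863 for IL-2 against naive, and Cd3g -0.0542 after quantile normalization. With an array left out, Cd247 ranged from -0.11 to 0.29 and Zap70 from -0.14 to 0.0455 for IL-2 against naive. Likewise Cd247 ranged from -0.32 to 0.083 for IL-12 against naive, Cd3e from -0.23 to 0.017 for IL-2 against naive, Trat1 from -0.0119 to 0.26 for IL-12 against naive and Zap70 from -0.12 to 0.0663 for IL-12 against IL-2. The labels do not say whether replicate numbers pair the arrays, and the correlation of replicate differences cannot settle it. That correlation was 0.02 for naive and IL-2, -0.02 for naive and IL-12 and 0.15 for IL-2 and IL-12. With the replicate number as a block, 2414, 5128 and 6471 genes and 3, 4 and 4 members passed, in the order IL-12 against IL-2, IL-2 against naive and IL-12 against naive.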
